A study of Homo sapiens with 12 samples.

Results

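The p53 and RB axis was followed through 9 genes: MDM2, CDKN1A, BBC3, CDKN2A, RB1, RBL1, CCND1, CCNE1 and E2F1. They were chosen by name, as the rows of the deposited gene table whose Ensembl identifier maps to these symbols, and each was found once among the 20286 genes listed. RNA was sequenced from HK-2 cells, an established human line of kidney proximal tubule epithelium that was immortalised with the papillomavirus oncogenes E6 and E7. Cells were kept in DMEM with fetal bovine serum and treated for 48 h with recombinant S100A8, with recombinant S100A9, with recombinant S100A8/S100A9, or with the matching amount of phosphate-buffered saline (PBS) as control, and each of these 4 groups held 3 libraries. The labels give the genotype of all groups as WT and the protein concentration as 5 mg/mL, a unit that was taken from the labels alone. Both S100 proteins bind calcium, pair with each other and are released by neutrophils and monocytes as danger signals. Nothing in the labels states whether the 3 libraries of a group are separate cultures, and the p-values below cover no more than the library-to-library spread, which could be technical.

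The p53 protein is a transcription factor that stress stabilises. Among its targets are CDKN1A, which encodes the cyclin-dependent kinase inhibitor p21, MDM2, which encodes the ubiquitin ligase that marks p53 for degradation and so closes a feedback loop, and BBC3, which encodes PUMA, a pro-apoptotic member of the BCL2 family. RB1 and RBL1 encode the pocket proteins RB and p107, which bind E2F transcription factors and hold back genes of S-phase entry. Cyclin D1 (CCND1) and cyclin E1 (CCNE1) activate the kinases that phosphorylate the pocket proteins, and E2F1, CCNE1 and RBL1 are themselves known E2F targets. CDKN2A encodes p16INK4a, an inhibitor of the kinases that pair with D cyclins, and, from another first exon, p14ARF, an inhibitor of MDM2. Of the viral oncogenes, E6 is known to direct p53 to degradation through the cellular ligase UBE3A and E7 to bind the pocket proteins. The oncogenes thus act on the p53 arm and the RB arm at the level of protein, which RNA counts do not measure.

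Promoter windows of 3 of the genes held matches to p53 motifs, at most 2 bases off, or to E2F motifs, and a window of each is shown. Windows of 300 bases, 250 before and 50 from an annotated start, came from RefSeq (GRCh38.p14) and were found for 8 of the 9 genes. Each is printed 5′ to 3′ on the strand of its gene. Capitals mark, in MDM2, a 20-base match to the p53 site that is at most 2 bases off, and in E2F1 and RBL1, matches on either strand to the E2F words TTTCCCGC, TTTCGCGC, TTTGCCGC or TTTGGCGC.
MDM2, chr12:68808767-68809066, plus strand: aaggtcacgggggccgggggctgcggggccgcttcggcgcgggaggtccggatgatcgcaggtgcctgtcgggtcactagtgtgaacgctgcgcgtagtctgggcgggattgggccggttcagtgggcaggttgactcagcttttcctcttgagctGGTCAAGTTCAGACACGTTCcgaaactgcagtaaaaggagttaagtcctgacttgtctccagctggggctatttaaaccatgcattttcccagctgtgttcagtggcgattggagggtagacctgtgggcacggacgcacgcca
E2F1, chr20:33686336-33686635, minus strand: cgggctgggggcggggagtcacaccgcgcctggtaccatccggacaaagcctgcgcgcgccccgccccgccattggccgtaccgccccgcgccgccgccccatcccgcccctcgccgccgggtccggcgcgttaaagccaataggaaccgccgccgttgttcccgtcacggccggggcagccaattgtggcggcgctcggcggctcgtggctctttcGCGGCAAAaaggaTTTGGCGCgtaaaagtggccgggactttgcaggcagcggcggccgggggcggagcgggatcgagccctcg
RBL1, chr20:37095948-37096247, minus strand: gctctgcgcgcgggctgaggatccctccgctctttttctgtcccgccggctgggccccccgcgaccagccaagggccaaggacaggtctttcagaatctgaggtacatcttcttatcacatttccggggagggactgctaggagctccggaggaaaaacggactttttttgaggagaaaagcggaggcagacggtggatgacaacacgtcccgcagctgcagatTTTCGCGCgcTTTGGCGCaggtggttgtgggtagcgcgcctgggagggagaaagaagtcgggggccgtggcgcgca
The match in MDM2 begins 94 bases before the start of this window's transcript, and a window shifted by a few bases holds the same match. Over all promoters of this length, 0.649% of 35116 windows hold a p53 match at most 2 bases off. The E2F words begin 33 and 20 bases before the start in E2F1, and 26 and 16 bases before it in RBL1. Of all windows, 3.32% hold at least 1 of the 4 words. The more upstream windows of MDM2 hold 1 E2F word, and the windows of CDKN1A, CDKN2A, CCNE1 and BBC3 hold none, nor does that of RB1, which lies at a start inside the gene. The windows of CDKN1A and BBC3, the other p53 targets among the 9 genes, hold no p53 match even at 3 bases off. A match at most 3 bases off is held by 5.2% of all windows, that of RB1 among them. Bases outside the windows were not searched. A match is a run of letters and says nothing of binding, and none of these windows was assayed.

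The libraries held 15882193 to 20748334 counts, with 15483 to 15653 genes above 0 in each. Of the genes listed, 13512 passed the filter on low counts, all 9 among them. Of 9 markers of renal epithelium, 7 reached 1 FPKM in control cells, among them PAX8 at 115 FPKM and KRT8 at 290 FPKM. PAX2 and CDH1 did not, at 0.90 FPKM each. Of 9 genes that define the mature proximal tubule, GGT1 alone did so, and LRP2, CUBN and AQP1 were at or near 0. No endothelial marker of 4 reached 1 FPKM, and PTPRC, the common leukocyte antigen, was listed at 0 in control cells, although CD68 was at 62.7 FPKM. Of 6 fibroblast markers 2 reached 1 FPKM, LUM at 33.8 FPKM and COL1A1 at 2.61 FPKM.

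In untreated HK-2 cells the RNAs of the axis covered a wide range, with the inhibitor genes at the top and the death gene at the bottom. FPKM, the authors' count scaled to gene length and to the depth of the library, allows levels to be compared between genes. CDKN1A stood at 122.85 ± 7.01 FPKM in control libraries (SD, n = 3, as for all means below), above 96.6% of the genes tested. CDKN2A followed with 106.77 ± 7.12 FPKM, above 95.8% of genes. Both kinase inhibitor genes were thus among the strongly expressed genes of the line, since the median gene tested had 10.8 FPKM.

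CCND1 had 60.2 ± 2.7 FPKM and stood above 90.9% of genes, and RB1 had 34.0 ± 0.5 FPKM and stood above 81.6%. E2F1 had 22.6 ± 0.76 FPKM, MDM2 19.4 ± 1.0 FPKM and RBL1 14.5 ± 1.5 FPKM. CCNE1, at 11.5 ± 0.60 FPKM, was close to the median gene. BBC3 had 2.39 ± 0.53 FPKM, above 19.95% of genes only, and was 4.81-fold below CCNE1, the largest step between neighbours in this order. RB1, the gene of the pocket protein, had 1.51 times the FPKM of E2F1, the gene of the factor it binds.

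**Figure D1:**
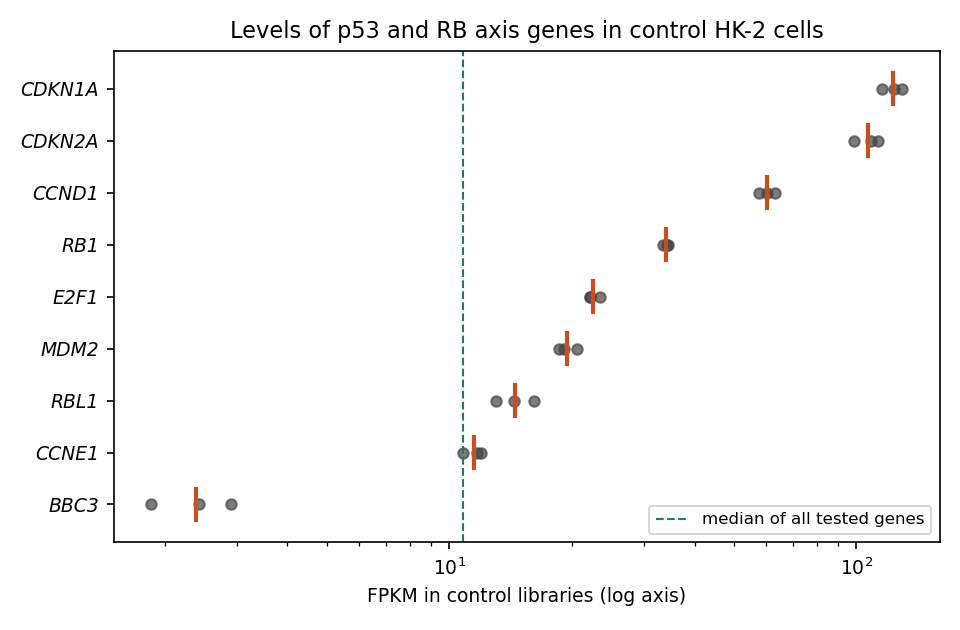
FPKM (log axis) of the 9 genes of the p53 and RB axis in the 3 control libraries, as points with the mean as a vertical bar, in order of level; the dashed line is the median gene tested. CDKN1A and CDKN2A lie at or above 98.9 FPKM in every control library and BBC3 lies at or below 2.9 FPKM.

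The order was the same by group mean in all 4 groups. In control libraries no gene overlapped its neighbour. CDKN1A and CDKN2A overlapped in each of the 3 treated groups, and CDKN1A was the higher of the pair in 9 of 12 libraries. E2F1 and MDM2 overlapped in 2 groups. The remaining neighbours kept apart in every group, so between those the order of level was larger than the spread of the libraries.

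The genes lie at 12:68808176-68850686 (MDM2), 6:36676460-36687339 (CDKN1A), 19:47220822-47232766 (BBC3), 9:21967753-21995301 (CDKN2A) and 13:48303726-48599436 (RB1) in GENCODE 29 on GRCh38. RBL1 lies at 20:36996349-37095995, CCND1 at 11:69641087-69654474, CCNE1 at 19:29811898-29824308 and E2F1 at 20:33675683-33686404. The build behind the deposited counts is not known. Counts of CDKN2A pool the transcripts of p16INK4a and p14ARF, and the values cannot be divided between them. The use of strand in counting is not given in the sources used here. Exons of CCND1 share 497 bases with LTO1 on the other strand, which had 222 to 303 counts per library. Exons of MDM2 share 133 bases with the gene for carboxypeptidase M on the other strand, which had 1030 to 1397 counts. MDM2 exons also share 785 bases with an antisense gene and 439 bases with a pseudogene on the same strand. Neither of these is among the genes listed. Exons of CDKN2A share 341 bases with the antisense transcript CDKN2B-AS1. Exons of RBL1 share 211 bases with an antisense gene, those of CDKN1A 146 bases with the noncoding gene DINOL, and those of BBC3 80 and 76 bases with microRNA genes. RB1, E2F1 and CCNE1 share exon bases with no other gene.

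Treatment effects were tested with edgeR's quasi-likelihood test on the counts of all 13512 genes, with Benjamini-Hochberg adjustment over all of them and a threshold of 0.05. Levels below are CPM, which are counts scaled to library totals with TMM factors, and differences are log2 values of the first-named group over the second. No gene of the axis passed the threshold in any of the 6 comparisons, nor in the test for any difference among the 4 groups, and the same count of 0 of 9 came from DESeq2. A fit with a replicate block, which the labels do not state, called CDKN1A alone of the 9, as described in the last section. Across all genes, the test among the 4 groups called 0.222%. In that test CCND1 and BBC3 had the smallest unadjusted p of the 9, 0.0475 (adjusted 0.84) and 0.044 (adjusted 0.826). The treated groups share their control libraries, so the 3 differences of a gene from control are not independent of one another.

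With S100A8 against control, 0 of 9 genes were called, beside 0.0074% of all genes. At an unadjusted p under 0.05 there was 1 gene of the axis, MDM2, and 477 genes in all. The median difference of the 9 genes was 0.059, with a range from -0.09 to 0.19, and the median over all genes was 0.0004. By CPM, the libraries of both groups did not overlap for 1 of the 9 genes, MDM2, against 8.54% of all genes.

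With S100A9 against control, 0 of 9 were called, beside 0.148% of all genes. CCND1 alone of the 9 had an unadjusted p under 0.05, as did 791 genes in all. The median difference was 0.077, from -0.01 to 0.34, beside a median of -0.0001 over all genes. By CPM, MDM2 and CCND1 were higher in every S100A9 library than in every control library. Over all genes, 12% had groups that did not overlap.

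With S100A8/S100A9 against control, 0 of 9 were called, as were 0% of all genes, whereas DESeq2 called 1 gene in all, none of the axis. CCND1 again was the single gene of the 9 with an unadjusted p under 0.05, among 757 genes. The median difference was 0.0099, from -0.18 to 0.13, beside -0.0005 over all genes. By CPM, CCND1 was higher and CDKN1A lower in every S100A8/S100A9 library than in every control library. Over all genes, 10.7% had groups that did not overlap.

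**Figure D2:**
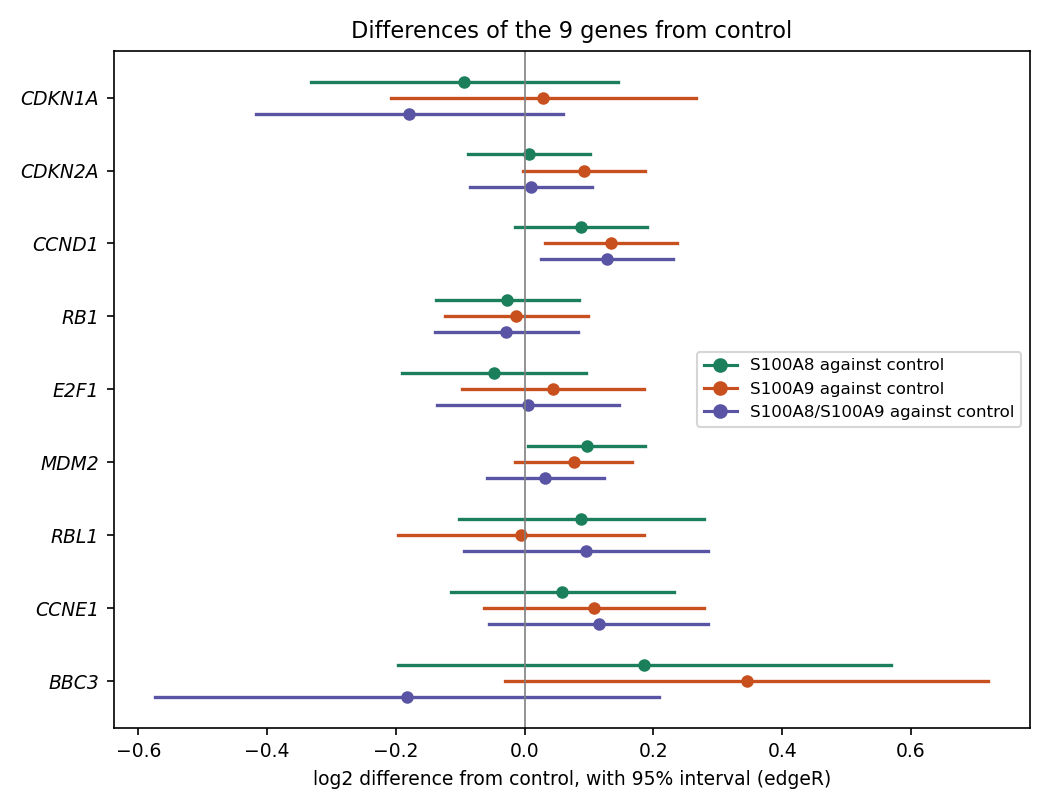
Log2 differences of the 9 genes in S100A8, S100A9 and S100A8/S100A9 cells from control cells, with 95% intervals from edgeR's quasi-likelihood fit. Intervals for RB1, MDM2 and CDKN2A are the narrowest with those of CCND1, and those of BBC3 reach from -0.57 to 0.72 over the 3 treatments.

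The 3 p53 target genes showed different spreads. MDM2 had 102, 104 and 101 CPM in S100A8 libraries, 99.0, 99.5 and 105 CPM in S100A9 libraries, and 98.0, 101 and 94.9 CPM in S100A8/S100A9 libraries. Control libraries had 93.7, 97.0 and 97.1 CPM. By CPM, all 3 control libraries lay below all S100A8 and S100A9 libraries, while S100A8/S100A9 overlapped control. By FPKM every treated group overlapped control. The range was 20.1 to 21.0 FPKM with S100A8, 18.9 to 20.7 FPKM with S100A9 and 18.6 to 20.5 FPKM in control. The difference was 0.10 with S100A8 (95% interval 0.005 to 0.19, adjusted p = 1), 0.08 with S100A9 (-0.01 to 0.17, adjusted p = 0.872) and 0.03 with S100A8/S100A9 (-0.06 to 0.12, adjusted p = 0.963) in edgeR's test. The upper bounds of these intervals correspond to MDM2 levels 13.9%, 12.3% and 8.88% above control. All of these values are from bulk libraries, in which fewer cells with a transcript and less RNA per cell cannot be told apart.

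CDKN1A had 218, 265 and 246 CPM in S100A8 libraries, 224, 294 and 275 CPM in S100A9 libraries, and 217, 233 and 238 CPM in S100A8/S100A9 libraries. Control libraries had 244, 273 and 261 CPM. The lowest value of every group was its replicate 1, and the S100A8/S100A9 libraries were the only treated group wholly below control. The difference from control was -0.09 with S100A8 (-0.33 to 0.14, adjusted p = 1), 0.03 with S100A9 (-0.21 to 0.27, adjusted p = 0.988) and -0.18 with S100A8/S100A9 (-0.42 to 0.06, unadjusted p = 0.123, adjusted p = 0.898) by edgeR. As percent differences from control, the 3 intervals together reach from -25.1% to 20.25%.

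BBC3 was counted 50 to 100 times per library. It had 3.40, 4.36 and 5.69 CPM in S100A8 libraries, 4.62, 5.15 and 5.27 CPM in S100A9 libraries, and 3.15, 3.59 and 3.72 CPM in S100A8/S100A9 libraries. Control libraries had 4.03, 3.13 and 4.64 CPM. The S100A9 libraries held the highest group mean, 5.01 ± 0.34 CPM, and S100A8/S100A9 libraries the lowest, 3.49 ± 0.30 CPM, while control libraries spread over both at 3.94 ± 0.76 CPM. The difference from control was 0.19 with S100A8 (-0.20 to 0.57, adjusted p = 1), 0.34 with S100A9 (-0.03 to 0.72, adjusted p = 0.857) and -0.18 with S100A8/S100A9 (-0.57 to 0.21, adjusted p = 0.934) by edgeR. These differences of BBC3 moved with single libraries. With S100A8 the difference was -0.02 without S100A8 replicate 3 and 0.35 without S100A8 replicate 1. With S100A9 it was 0.21 without control replicate 2, and with S100A8/S100A9 it was -0.04 without control replicate 3 and -0.32 without control replicate 2.

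CDKN2A, the inhibitor that feeds both arms, had 99.9, 96.1 and 104 CPM in S100A8 libraries, 103, 109 and 106 CPM in S100A9 libraries, and 99.4, 103 and 99.2 CPM in S100A8/S100A9 libraries. Control libraries had 95.3, 99.9 and 104 CPM. The highest of the 12 libraries, S100A9 replicate 2, was 1.145 times the lowest, control replicate 1, and S100A9 had the highest group mean. Its difference from control was 0.01 with S100A8 (-0.09 to 0.10), 0.09 with S100A9 (-0.002 to 0.19, adjusted p = 0.852) and 0.01 with S100A8/S100A9 (-0.08 to 0.10) by edgeR.

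Of the pocket proteins, RB1 averaged 159 ± 12 CPM in S100A8 cells, 161 ± 0.8 CPM in S100A9 cells, 159 ± 13 CPM in S100A8/S100A9 cells and 162 ± 2.4 CPM in control cells. Its 3 differences from control lay between -0.03 and -0.01, and their 95% intervals reached from -0.14 to 0.10. Single libraries ran from 145 CPM in S100A8/S100A9 replicate 1 to 174 CPM in S100A8 replicate 1, and the S100A9 and control libraries lay close together within this range. RBL1 averaged 85.2 ± 4.9 CPM in S100A8 cells, 79.8 ± 7.6 CPM in S100A9 cells, 85.8 ± 7.2 CPM in S100A8/S100A9 cells and 80.3 ± 8.5 CPM in control cells. Its differences were 0.09, -0.01 and 0.10 in the same order, with intervals from -0.20 to 0.28. Its libraries ran from 72.6 CPM in control replicate 3 to 92.4 CPM in S100A8/S100A9 replicate 2, and every treated group overlapped control for both genes.

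CCND1 had the smallest unadjusted p of the 9 genes against control. It had 291, 249 and 270 CPM in S100A8 libraries, 290, 268 and 279 CPM in S100A9 libraries, and 285, 266 and 282 CPM in S100A8/S100A9 libraries. Control libraries had 255, 242 and 265 CPM. By CPM with TMM factors, every S100A9 and S100A8/S100A9 library lay above all controls. The lowest S100A8/S100A9 library, at 265.6 CPM, was next to the highest control library, at 265.1 CPM. Without TMM factors, S100A8/S100A9 replicate 2, at 265.2 CPM, lay below control replicate 3, at 266.0 CPM. By FPKM both groups overlapped control, with 62.81 in S100A9 replicate 2, 62.76 in S100A8/S100A9 replicate 2 and 62.94 in control replicate 3. The S100A8 libraries overlapped control. The difference was 0.09 with S100A8 (-0.02 to 0.19, adjusted p = 1), 0.13 ± 0.05 (SE) with S100A9 (0.03 to 0.24, unadjusted p = 0.0126, adjusted p = 0.674) and 0.13 ± 0.05 with S100A8/S100A9 (0.03 to 0.23, unadjusted p = 0.0166, adjusted p = 0.831) by edgeR. None passed the adjustment.

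CCNE1 averaged 19.4 ± 1.6 CPM in S100A8 cells, 20.1 ± 0.88 CPM in S100A9 cells, 20.2 ± 1.2 CPM in S100A8/S100A9 cells and 18.6 ± 0.83 CPM in control cells. Its differences of 0.06, 0.11 and 0.12 had intervals from -0.11 to 0.29. Its libraries ran from 18.0 CPM in control replicate 3 to 21.6 CPM in S100A8/S100A9 replicate 3, with overlap between control and every treated group. E2F1 averaged 58.6 ± 7.2 CPM in S100A8 cells, 62.3 ± 1.5 CPM in S100A9 cells, 60.6 ± 4.5 CPM in S100A8/S100A9 cells and 60.5 ± 2.0 CPM in control cells. Its differences were -0.05, 0.04 and 0.005, with intervals from -0.19 to 0.18. The lowest and the highest of its 12 libraries both came from the S100A8 group, at 53.2 CPM in replicate 2 and 66.7 CPM in replicate 1.

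**Figure D3:**
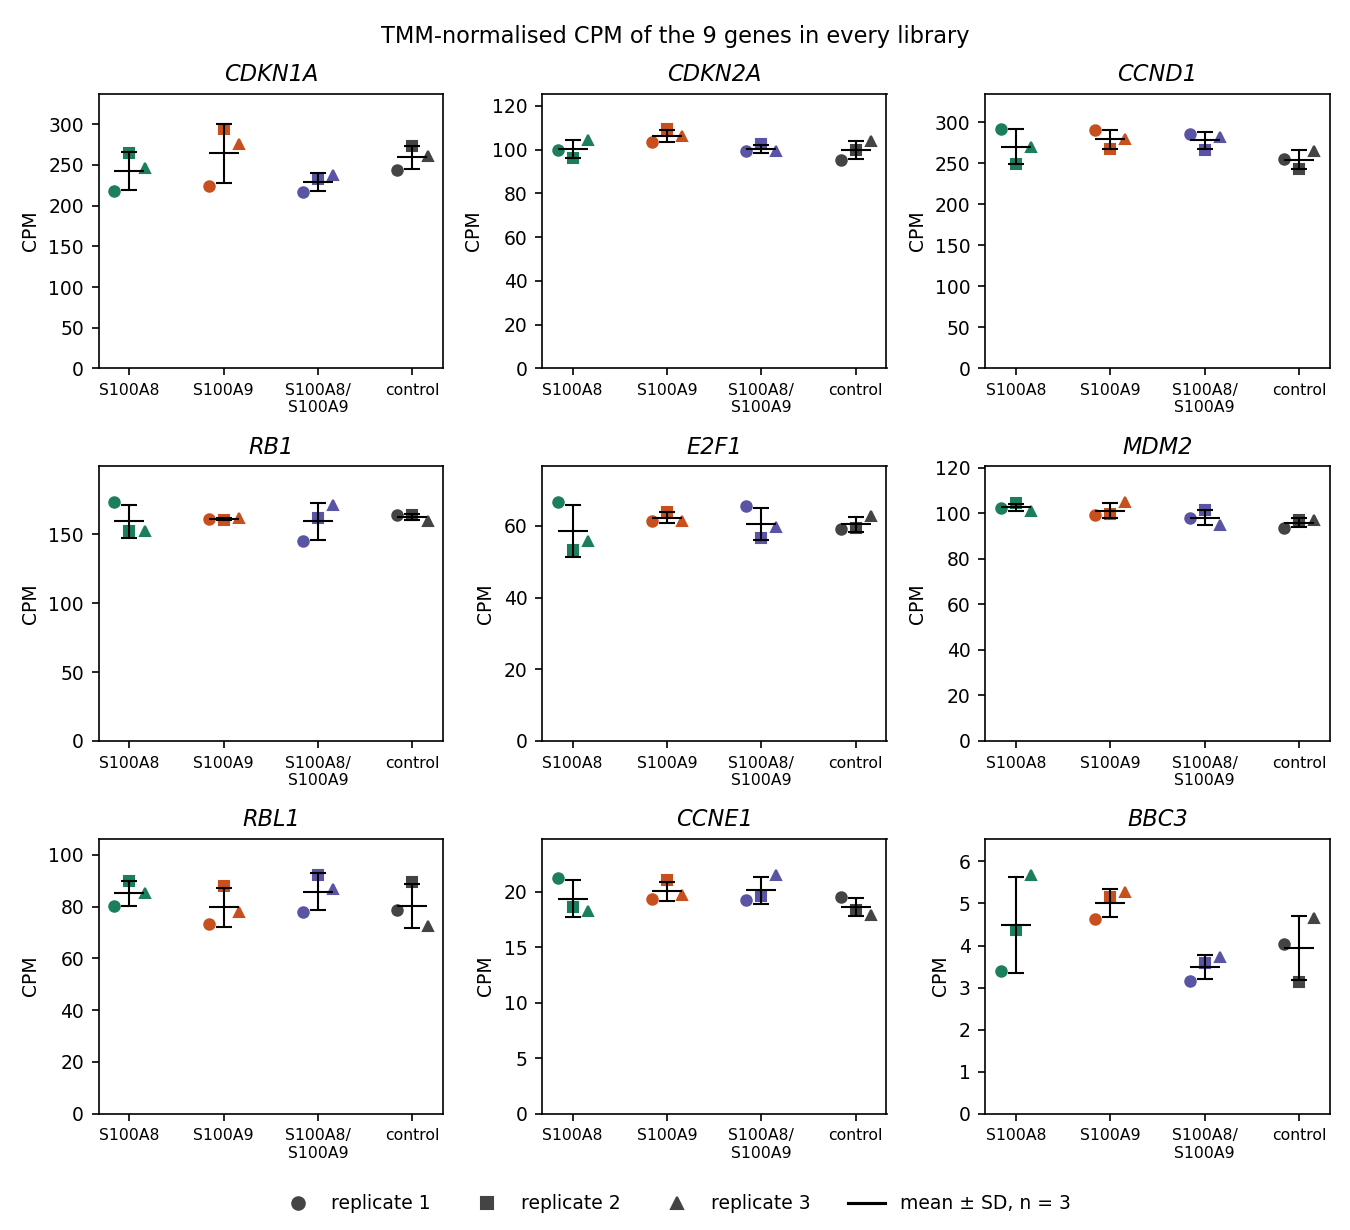
TMM-scaled CPM of each of the 9 genes in every library, one panel a gene, with groups in the order S100A8, S100A9, S100A8/S100A9 and control and marker shapes for the replicates; bars show the mean ± SD (n = 3). CDKN1A is lowest in replicate 1 of all 4 groups, and the highest library of BBC3, S100A8 replicate 3, has 5.69 CPM.

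The treated groups were also set against each other, at the same labelled concentration and time. With S100A8/S100A9 against S100A9, 0 of 9 genes were called, beside 0.252% of all genes, and the median difference was -0.04. BBC3 showed the largest difference of any gene of the axis, with 3.15, 3.59 and 3.72 CPM in S100A8/S100A9 libraries, against 4.62, 5.15 and 5.27 CPM in S100A9 libraries. The groups did not overlap, and the difference was -0.53 ± 0.18 (SE, 95% interval -0.90 to -0.15, unadjusted p = 0.00784), with an adjusted p of 0.527 by edgeR. CDKN2A likewise did not overlap, at 99.4, 103 and 99.2 CPM in S100A8/S100A9 libraries, against 103, 109 and 106 CPM in S100A9 libraries (difference -0.08, -0.18 to 0.01, adjusted p = 0.749). By FPKM CDKN2A did overlap, with 108.9 in S100A8/S100A9 replicate 2 and 107.7 in S100A9 replicate 1. Over all genes 12.5% had groups that did not overlap, and 966 had an unadjusted p under 0.05.

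CDKN1A was lower in S100A8/S100A9 than in S100A9 cells by group mean, at 229 ± 11 CPM in S100A8/S100A9 cells against 264 ± 36 CPM in S100A9 cells. The libraries overlapped, and the difference of -0.21 (-0.45 to 0.03) had an adjusted p of 0.745 by edgeR. A replicate block changed this call, as described in the last section. With S100A8/S100A9 against S100A8, 0 of 9 were called, as were 0% of all genes (598 at an unadjusted p under 0.05, and 2 called by DESeq2), and no gene of the axis kept its libraries apart, against 9% of all genes. BBC3 again had the largest difference, -0.37 (-0.75 to 0.02, adjusted p = 0.98), which was -0.16 without S100A8 replicate 3 and -0.53 without S100A8 replicate 1. With S100A9 against S100A8, 0 of 9 were called, beside 0.185% of all genes. None had an unadjusted p under 0.05, as 946 genes in all did, and none kept its libraries apart, against 12.5% of all genes. The differences there ran from -0.09 for RBL1 to 0.16 for BBC3, and that of BBC3 was -0.002 without S100A8 replicate 1 and 0.37 without S100A8 replicate 3.

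The genes differed in how much they varied between libraries. Over all 12 libraries the coefficient of variation was 3.55% for MDM2, 3.97% for CDKN2A, 4.92% for RB1 and 5.91% for CCND1. It was 9.90% for CDKN1A and 20.3% for BBC3, for which counting alone gives 11.7%. CDKN1A varied more than 98.4% of the 873 genes within 1.5-fold of its level, and RBL1 more than 96.7% of 2594 such genes, whereas MDM2 varied more than 30.5% of 2287.

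CDKN1A and RBL1 were lower in replicate 1 than in replicate 2 throughout. Replicate 2 exceeded replicate 1 in all 4 groups for both, on average by 0.23 (log2) for CDKN1A and 0.21 for RBL1, and for MDM2 too, by 0.04. Replicate 2 was below replicate 1 in all 4 groups for CCND1, by 0.13. Over all genes tested, 24.8% had replicate 2 on the same side of replicate 1 in every group. The labels do not say what a replicate number stands for.

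Among the 36 pairs of the 9 genes, no correlation of log2 CPM over the 12 libraries passed adjustment (100000 resamples, smallest adjusted permutation p 0.421 for Pearson's r and 0.388 for Spearman's rho), and 4 pairs had an unadjusted permutation p under 0.05. The permutations took no account of group or replicate number. CDKN1A tended to be low where CCND1 was high, with Pearson's r = -0.60 (permutation p = 0.0417) and Spearman's rho = -0.62 (permutation p = 0.038), and r was -0.65 without the 2 libraries farthest from the median of CDKN1A. In all 4 groups CDKN1A was higher and CCND1 lower in replicate 2 than in replicate 1. How much of their r comes from this was not tested. CCND1 and E2F1 varied in the same direction, with r = 0.60 (permutation p = 0.0387) and rho = 0.62 (permutation p = 0.0349), and r = 0.60 without the 2 farthest. CDKN2A with BBC3 had r = 0.59 (permutation p = 0.0452) and rho = 0.64 (permutation p = 0.0315), and r = 0.61 without the 2 farthest. RB1 with CCNE1 had r = 0.58 (permutation p = 0.0468) and rho = 0.60 (permutation p = 0.0432), and r = 0.62 without the 2 farthest. Within groups, after removal of group means, r was -0.75 for CDKN1A with CCND1, 0.75 for CCND1 with E2F1, 0.78 for RB1 with CCNE1 and 0.43 for CDKN2A with BBC3. The strongest r of the 36 pairs within groups was that of another pair, RBL1 with CCND1, at -0.85. CDKN1A with RBL1 had 0.72 within groups. Over the 12 libraries these pairs had r = -0.49 and r = 0.29.

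By the rule of highest r of log2 CPM over the 12 libraries, among 9912 genes with at least 10 CPM, MDM2 was most like DRAP1 (r = 0.88), CDKN1A most like MIOX (0.94), which encodes the inositol oxygenase of kidney, and EIF3A (0.93). CDKN2A was most like MRPS21 (0.88) and RB1 most like C5orf24 (0.95). CCND1 was most like IRS2 (0.92), an adaptor of the insulin receptor, and the anti-apoptotic gene BCL2 (0.92). CD109 had r = 0.91 with RBL1. CCNE1 was most like SRGAP2B (0.87), E2F1 most like RAB11FIP3 (0.91) and BBC3 most like S100A2 (0.92). These are the highest of many values and carry no test.

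Counts and FPKM did not order the libraries alike for some of the genes, MDM2, RBL1 and CCNE1 among them. The CPM of a library divided by its FPKM give the gene length that the authors' values imply, which stays constant where 1 length per gene was used for all libraries. For E2F1, with 1 annotated transcript, it was 2.69 kb in every library, and for RB1 it was 4.76 to 4.79 kb. For MDM2, with 34 annotated transcripts in GENCODE 29, it ran from 4.42 kb in S100A8/S100A9 replicate 1 to 5.54 kb in S100A9 replicate 3, a ratio of 1.254 that exceeds that of 89.5% of 8818 genes at 5 FPKM or more. For RBL1 it was 4.43 kb in S100A9 replicate 1 and 5.11 to 5.69 kb in the other libraries. For CCNE1 it ran from 1.537 to 1.747 kb, a ratio of 1.137.

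The direction or size of some differences turned on this. MDM2 was 0.04 lower in S100A8/S100A9 than in S100A9 cells by counts, but 0.10 higher on the log2(FPKM + 1) scale. In S100A9 against control cells, MDM2 was 0.08 higher by counts and 0.009 higher on the log2(FPKM + 1) scale. RBL1 was 0.01 lower in S100A9 than in control cells by counts, but 0.11 higher on the log2(FPKM + 1) scale. RBL1 had 73.3 CPM in S100A9 replicate 1, the second lowest of the 12 libraries, while its FPKM there, 16.5, was above every control library. The difference of CCNE1 in S100A8 from control cells was 0.06 by counts, but -0.02 on the log2(FPKM + 1) scale. None of these differences passed the threshold on either scale. Which transcripts were present in each library was not tested.

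**Figure D4:**
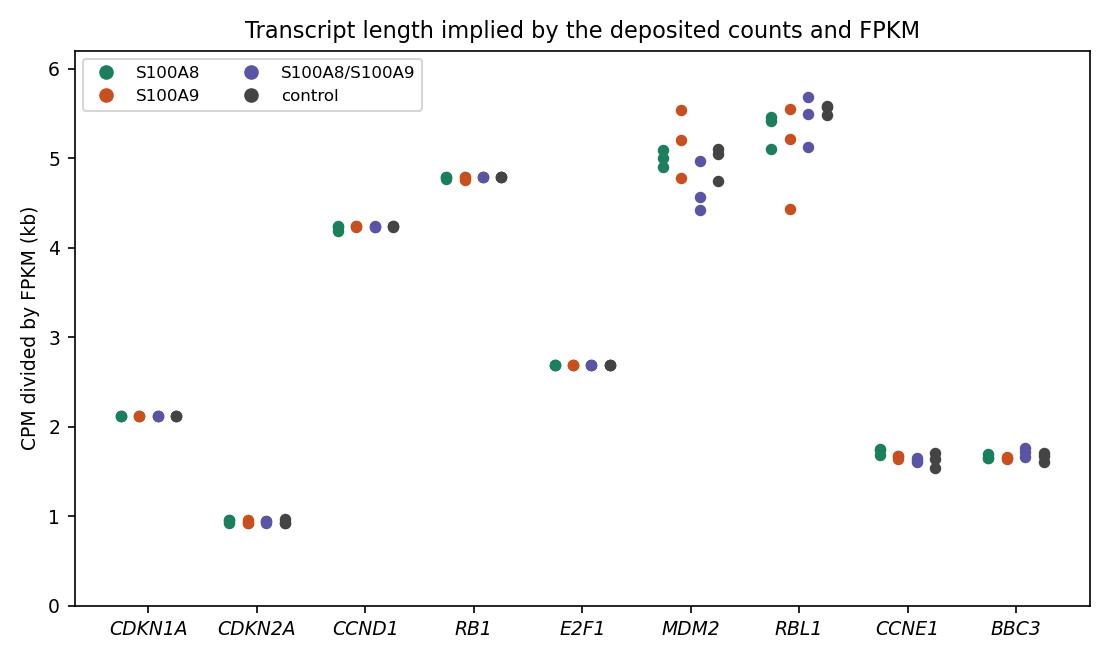
Gene length implied by the authors' values (CPM of the library total divided by FPKM, in kb) for each of the 9 genes in the 12 libraries. Points for E2F1, RB1 and CDKN1A nearly coincide, while those of MDM2 spread from 4.42 to 5.54 kb and RBL1 has 1 library, S100A9 replicate 1, at 4.43 kb.

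Wider lists of the axis, which include the 9 genes, held 1 called gene. Of 30 p53 target genes tested, GDF15, which encodes a stress-induced cytokine of the TGF-beta family, was called. It was called in S100A9 against S100A8, beside 0.185% of all genes, and in S100A8/S100A9 against S100A9, beside 0.252%. In the test among the 4 groups, GDF15 was called beside 0.222% of all genes. It had 166, 177 and 181 CPM in S100A9 libraries, 144, 135 and 153 CPM in S100A8 libraries, and 150, 142 and 147 CPM in S100A8/S100A9 libraries. Control libraries had 146, 147 and 165 CPM. By CPM the S100A9 libraries were the highest of the 12. By FPKM control replicate 3, at 142.3, lay above S100A9 replicate 1, at 141.7. GDF15 rose with S100A9 against S100A8 by 0.28 ± 0.05 (SE, adjusted p = 0.0114), and fell with S100A8/S100A9 against S100A9 by 0.25 ± 0.05 (adjusted p = 0.0224) by edgeR. With S100A9 against control its difference was 0.19 ± 0.05 (adjusted p = 0.21).

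When 1 library was left out, the differences of GDF15 stayed at -0.29 to -0.23 in S100A8/S100A9 against S100A9 and at 0.23 to 0.32 in S100A9 against S100A8, while several of the calls were lost. S100A8/S100A9 against S100A9 kept the call without S100A9 replicate 1 (adjusted p = 0.0161) and lost it without any other single library of either group (adjusted p from 0.0645 to 0.261). S100A9 against S100A8 lost it without S100A8 replicate 1 or 2 or S100A9 replicate 2 or 3 (adjusted p from 0.0607 to 0.173). Limma on FPKM called neither, with adjusted p of 0.238 to 0.278. DESeq2 called both, with adjusted p of 0.00443 in S100A8/S100A9 against S100A9 and 0.00086 in S100A9 against S100A8. Both calls also held in edgeR with DESeq2's size factors, no filter, the 6 libraries of a comparison alone or a replicate block. Against control, S100A9 passed without control replicate 3 (adjusted p = 0.0429), and, with all libraries, in the fit with a replicate block (difference 0.19, adjusted p = 0.025).

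In S100A8/S100A9 cells against S100A9 cells, 3 of the 30 p53 targets had a difference above 0 and their median was -0.08, where the median of all genes was -0.001. Over all genes 49.4% were above 0 there. In S100A9 against S100A8 cells, 20 of 30 were above 0, with a median of 0.07, beside 50.2% and a median of 0.0004 over all genes. Against control, 9 of 30 were above 0 with S100A8/S100A9 (median -0.06), 20 of 30 with S100A9 (0.03) and 15 of 30 with S100A8 (-0.004). Over all genes these shares were 49.7%, 49.9% and 50.2%. The comparisons share S100A9 or control libraries. The list was chosen with earlier results of these data known, and the list itself was not tested. Other p53 targets taken by their p were BTG2, an antiproliferative gene, and BAX, a pro-apoptotic gene. BTG2 averaged 7.76 CPM in S100A8 cells, 8.98 CPM in S100A9 cells, 6.84 CPM in S100A8/S100A9 cells and 7.66 CPM in control cells (adjusted p among the 4 groups 0.796). BAX averaged 40.5 CPM in S100A8 cells, 46.1 CPM in S100A9 cells, 43.7 CPM in S100A8/S100A9 cells and 43.9 CPM in control cells (adjusted p among the 4 groups 0.829).

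Of 13 tested partners and regulators of p53, 17 pocket proteins, E2F and DP factors with their partners, 16 G1 cyclins, kinases and inhibitors, 25 E2F targets of G1/S and 14 genes of the BCL2 family, 0 were called in any comparison, also by DESeq2. Over all genes, edgeR called 0% to 0.252% in these comparisons. At an unadjusted p under 0.05 in the test among the 4 groups stood 0, 0, 3, 1 and 2 of them, beside 799 of the 13512 genes in all. Medians of these lists lay between -0.05 and 0.07 in all 6 comparisons. UBE3A, the ligase that E6 recruits, had 30.2 FPKM in control cells, and the kinase gene CDK4 had 268 FPKM. The DNA clamp gene PCNA, an E2F target, had 231 FPKM, and RBL2, the third pocket protein gene, had 20.6 FPKM.

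Among the genes with the smallest p in these lists, CDKN1C, which encodes the kinase inhibitor p57, averaged 32.9 ± 2.6 CPM in S100A8 cells, 33.9 ± 1.8 CPM in S100A9 cells, 33.3 ± 2.4 CPM in S100A8/S100A9 cells and 28.3 ± 2.4 CPM in control cells (adjusted p among the 4 groups 0.633). CDKN2C, TP53BP1, MDM4, E2F6, LIN9, TFDP1, CCND2, RRM1, RRM2, BCL2 and PMAIP1 had adjusted p among the 4 groups from 0.823 to 0.908.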

How the data were processed

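Poly(A)-selected RNA of 12 HK-2 libraries, 3 in each of 4 groups, was sequenced on an Illumina instrument, per the labels' protocols. The authors deposited 1 gene table with expected counts (estimated reads; 12.0% of entries were not whole numbers) and FPKM values, which are scaled by the authors to gene length and depth, per the file headers. Neither the aligner nor the counter nor the annotation is named in what was used. All 20286 identifiers are human, although GRCm38 and mm10, which are mouse builds, appear in the submitters' processing notes. Of these, 20228 were named from a table of gene names, 50 from GENCODE 29, and 8 had no name.

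Expected counts were rounded and fitted with edgeR 4.0.16 in R 4.3.3 (filterByExpr with minimum count 10, TMM, robust quasi-likelihood fit of all 12 libraries by group, 8 residual degrees of freedom). Tests were two-sided. Standard errors and 95% intervals come from this fit, and the procedure was tested on simulated data. Library totals were 15882193 to 20748334, at which the 3 counts that a count of 0 allows are 0.189 CPM in the smallest library; this covers counting error only. Alternatives were DESeq2 1.42.0, its size factors, no filter, a replicate block, the 6 libraries of a comparison alone, limma 3.58.1 on log2(FPKM + 1) and log2(FPKM + 0.1), and leaving out each library.

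The 9 genes, the 6 lists and the markers were chosen with earlier results of these data known. Named beside the 9 were, per list, genes past the threshold or the 3 with the smallest p among the 4 groups, and, per gene, the 2 with the most similar pattern; a few of these are not reported here. The levels of UBE3A, CDK4, PCNA and RBL2 were chosen after their values were seen.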

Additional observations from a re-analysis of the deposited data

How the results depend on the processing

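A difference that changed sign counted as reversed where it passed the threshold in either setting, and none did. The 9 genes gave 54 differences and 702 values of them under alternatives, of which 59 changed sign with neither value past the threshold, and 1 passed it. Leaving out each library in turn left 0 to 0 of the 9 genes past the threshold, with a smallest adjusted p of 0.109. The labels do not say that the replicate number pairs libraries. Deviations from the group means of same-numbered libraries correlated at -0.17 to 0.41 in 18 pairs, of which 12 exceeded 0.1, and a library correlated best with its own number, out of 3, in 25 of 36 cases. All 3 pairs exceeded 0.1 in S100A8 with control (0.10 to 0.28) and in S100A9 with control (0.13 to 0.41), but not in the other comparisons. The block changed no call of the 9 genes in S100A8 or S100A9 against control. With the replicate block, 1 of the 9 genes, CDKN1A, passed in S100A8/S100A9 against S100A9 (log2 difference -0.20, adjusted p = 0.0141 by edgeR) and 1, again CDKN1A, in the test among the 4 groups (adjusted p = 0.0354). The list of p53 targets then held 2 called genes, CDKN1A and GDF15, and that of G1 cyclins, kinases and inhibitors 1, CDKN1A. Over all genes the block called 71 in S100A8/S100A9 against S100A9, beside 34 without it, 42 in S100A9 against control, beside 20, 69 in S100A9 against S100A8, beside 25, and 72 among the 4 groups, beside 30. Limma on log2(FPKM + 1) changed the sign of 9 of the 54 differences and the replicate block of 0. Counts near those of BBC3, 50 to 100 per library, limit what can be seen of that gene.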
